A study of Mus musculus with 28 samples.

Results

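The genes described here are 9 genes linked to excitatory neurons of the cerebral cortex or to their formation. They are *Neurod1*, *Neurod2*, *Neurod6*, *Neurog2*, *Tbr1*, *Fezf2*, *Emx1*, *Slc17a6* and *Slc17a7*, and were read in 2 types of striatal neuron that use GABA. They were named from what they are known for, not from their values, though with earlier results of these data known. They make up 9 of the 21938 protein-coding genes of the GENCODE vM21 annotation on chromosomes 1 to 19, X and Y. CUT&RUN (CnR), in which a nuclease tethered to an antibody releases the DNA beside a histone mark, had been run on nuclei that INTACT pulled out of the striatum with an antibody against a GFP-tagged nuclear membrane protein. The series has 28 samples, and the 4 lists used here pool 8 of them, 2 for each cell type and mark. The remaining 20 samples were not used here, and the study calls its replicates technical in its reporting summary and biological in its methods, so that whether the 2 samples of a pair came from separate mice is not known here.

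A2a nuclei came from adult Sun1-sfGFP;A2a-cre mice and D1 nuclei from adult Sun1-sfGFP;Drd1-cre mice, of both sexes. Both crosses share a C57BL/6J background and the Sun1-sfGFP transgene, a knock-in at the R26 locus behind a stop cassette that Cre removes, so the tag marks the cells in which the A2a or the Drd1 driver is or has been active. H3K4me3 was profiled with an Abcam antibody and H3K27me3 with an Active Motif antibody. For the D1 H3K27me3 samples the labels disagree, with A2a in the source name and D1 in the title and the cell type field. The title was followed here, and all H3K27me3 values given for D1 rest on that reading.

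H3K27me3 is laid down by Polycomb repressive complex 2 and covers genes of other lineages that a cell keeps silent, often as wide domains over developmental transcription factors. H3K4me3 marks the start sites of genes that are transcribed or poised, and a start site that carries both marks is called bivalent. The genes studied here belong to a cascade in which Emx1 patterns the dorsal forebrain, Neurog2 starts neuron formation, and the NeuroD factors, Tbr1 and Fezf2 build the glutamatergic neurons of the cortical layers, which load glutamate into synaptic vesicles with the transporters encoded by *Slc17a7* (VGLUT1) and *Slc17a6* (VGLUT2). Striatal projection neurons come from the ventral forebrain and release GABA.

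The labels were checked against markers of the cells. In the A2a list the D1 neuron genes *Drd1*, *Pdyn* and *Tac1* had promoter H3K27me3 islands of 16.8, 39.6 and 61.0 kb, against 1.8, 1.0 and 2.8 kb in the D1 list. In the D1 list the A2a neuron genes *Adora2a*, *Drd2* and *Penk* had islands of 45, 7.8 and 23.8 kb, against none, 2.6 and 3.4 kb in the A2a list. Promoter H3K4me3 peaks were listed at 3 of 3 genes of both sets in both lists, so their presence did not separate the cell types. At each gene the peak was wider in the list of its own cell type, with 423 bp in A2a and 2484 bp in D1 at *Drd1*. Fold enrichment did not follow the cell type at all of them, with 3.51 in A2a and 3.98 in D1 at *Drd2*. Promoter H3K4me3 was listed for 2 of 3 oligodendrocyte markers and 1 of 3 microglial markers in A2a and for 1 and 0 of them in D1. It was listed for 0 of 3 astrocyte markers in both lists. Of all protein-coding genes, 58.2% in A2a and 55.7% in D1 had such a peak. With any transcript start counted, peaks were found at 2 oligodendrocyte, 3 microglial and 2 astrocyte markers in A2a and at 1, 1 and 0 in D1. The shares of all genes were then 62.0% and 59.4%. The A2a and D1 lists held 22551 and 20080 H3K4me3 peaks and 60191 and 45760 H3K27me3 islands. The islands held 22091634 reads over 301 Mb in A2a and 7878685 reads over 184 Mb in D1, and library totals are not known from these lists.

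The promoters of all 9 cortical genes were touched by an H3K27me3 island in both cell types, and at 8 of them the island covered the start site in both. A promoter was taken as the stretch from 2 kb upstream to 1 kb downstream of the annotated 5′ end of a gene, and an island, a run of enriched windows called by SICER, counted from an overlap of 1 bp upward. An island of this kind was found at 9 of 9 promoters in A2a, where 21.7% of protein-coding genes had one, and at 9 of 9 in D1, where 15.3% had one. At *Slc17a7* in D1 a short island covered 25% of the promoter and began past the start, and with islands under 2000 bp left out the D1 count was 8. Islands in both lists were found at 14.3% of protein-coding genes, and 0 of the 9 had one in A2a only (7.38% of all). Each list pools its replicates, so there is 1 value per cell type and mark, no spread between mice and no test between cell types. In such a pool, a mark on a share of the nuclei and a weaker mark on all of them cannot be told apart.

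The islands were wide as well as present. Their median length was 21.4 kb in A2a and 15.2 kb in D1, against 6.2 kb and 4.8 kb over the protein-coding genes with a promoter island. An island of at least 10 kb, a length chosen after values had been seen, covered the promoter of 8 of the 9 genes in A2a (6.18% of protein-coding genes) and of 8 in D1 (3.29%). The same 8 genes passed this length in both lists (2.99%), and *Slc17a7* was the exception. The map of islands by gene shows that most of them ran over the gene and past its ends.

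**Figure D1:**
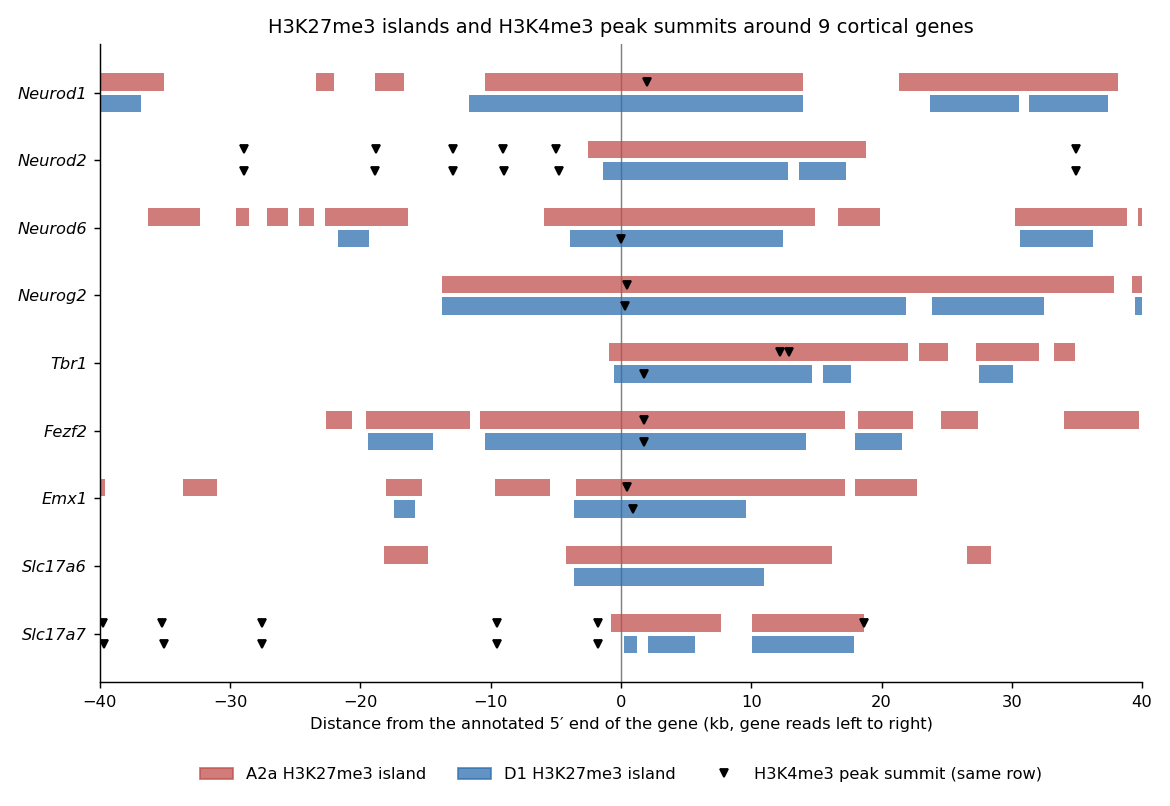
H3K27me3 islands (bars) and summits of H3K4me3 peaks (triangles) from 40 kb upstream to 40 kb downstream of the annotated 5′ end of each gene, in A2a (red, upper row) and D1 (blue, lower row), with distance in kb on the x axis. Bars cross the start site of 8 genes in both lists, while at *Slc17a7* the A2a bar crosses it and the D1 bar begins 0.252 kb past it.

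Among the NeuroD factors, *Neurod1* (chr2:79452521-79456751, minus strand), which drives neuronal differentiation, had the widest D1 island of the 3. It measured 24.4 kb with 4278 reads in A2a and 25.6 kb with 2061 reads in D1, or 175 and 80.5 reads per kb of island. Both islands began at the same base on the genome, and the D1 island ran 1200 bp further, so this was the one gene of the 9 whose island was longer in D1. *Cerkl*, a ceramide kinase-like gene, starts 34 bp upstream of *Neurod1* on the same strand, and the island over this shared window cannot be told apart between them.

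*Neurod2* (chr11:98325415-98329648, minus strand), which acts in maturing cortical neurons, had an island of 21.4 kb with 2423 reads in A2a and 14.2 kb with 805 reads in D1. *Neurod6* (chr6:55677822-55681263, minus strand), found in cortical pyramidal neurons, had one of 20.8 kb with 2053 reads in A2a and 16.4 kb with 902 reads in D1. Per kb these islands held 113 and 98.7 reads in A2a and 56.7 and 55 in D1, the lowest densities of the 8 genes with wide islands. The D1 island lay wholly within the A2a island at both genes.

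*Neurog2* (chr3:127633135-127635631, plus strand), the proneural factor at the top of the cascade, had the widest island of the 9 in both lists. It measured 51.6 kb with 9005 reads in A2a and 35.6 kb with 3678 reads in D1, at percentile 99.9 of both lists when islands were ranked by reads. Both began at the same base 13.7 kb upstream of the start, and the A2a island ended 35.4 kb and the D1 island 19.4 kb past the 3′ end of this gene of 2.50 kb. The difference in length was thus all on the downstream side.

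Of the layer and area factors, *Tbr1* (chr2:61802930-61814114, plus strand), a T-box factor of deep layer neurons, had an island of 23.0 kb with 3585 reads in A2a and 15.2 kb with 1467 reads in D1. *Fezf2* (chr14:12342094-12348189, minus strand), which specifies subcortical projection neurons, had one of 28 kb with 4686 reads in A2a and 24.6 kb with 2206 reads in D1. *Emx1* (chr6:85187438-85204462, plus strand), a homeobox factor of the dorsal forebrain, had one of 20.6 kb with 2696 reads in A2a and 13.2 kb with 1051 reads in D1. At *Tbr1* the islands reached only 0.929 kb and 0.529 kb upstream of the annotated start, whereas at *Fezf2* they reached 10.8 and 10.4 kb upstream. At *Emx1* the A2a island covered the gene to its 3′ end and the D1 island stopped within it.

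The 2 vesicular glutamate transporters differed from each other. *Slc17a6* (chr7:51622006-51671119, plus strand) had an island of 20.4 kb with 2899 reads in A2a and 14.6 kb with 1200 reads in D1, alike in width and density to those of the transcription factors. *Slc17a7* (chr7:45163949-45176142, plus strand) had one of 8.40 kb with 694 reads in A2a and one of 1.0 kb with 52 reads in D1 (95% Poisson interval 39 to 68, counting error only). By reads these stood at percentile 90.7 of the A2a list and 2.82 of the D1 list, where the islands of the other 8 genes stood at 98.1 or above.

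The short D1 island at *Slc17a7* was 1 of 2 D1 islands in the stretch that a longer A2a island covered. Within the stretch of the A2a promoter island, D1 held that island of 1.0 kb and another of 3.60 kb with 135 reads, and both lists held a further island over the 3′ end of the gene, of 8.60 kb with 805 reads in A2a and 7.80 kb with 375 reads in D1. With islands closer than 5 kb joined, the domain at *Slc17a7* measured 19.4 kb in A2a and 17.6 kb in D1, and the ratio of the lengths went from 8.40 to 1.10. Joining also moved *Neurog2*, whose domain became 152 kb in A2a and 46.2 kb in D1. The lengths of single islands at these genes therefore depend on the gap at which neighbouring islands are joined.

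**Figure D2:**
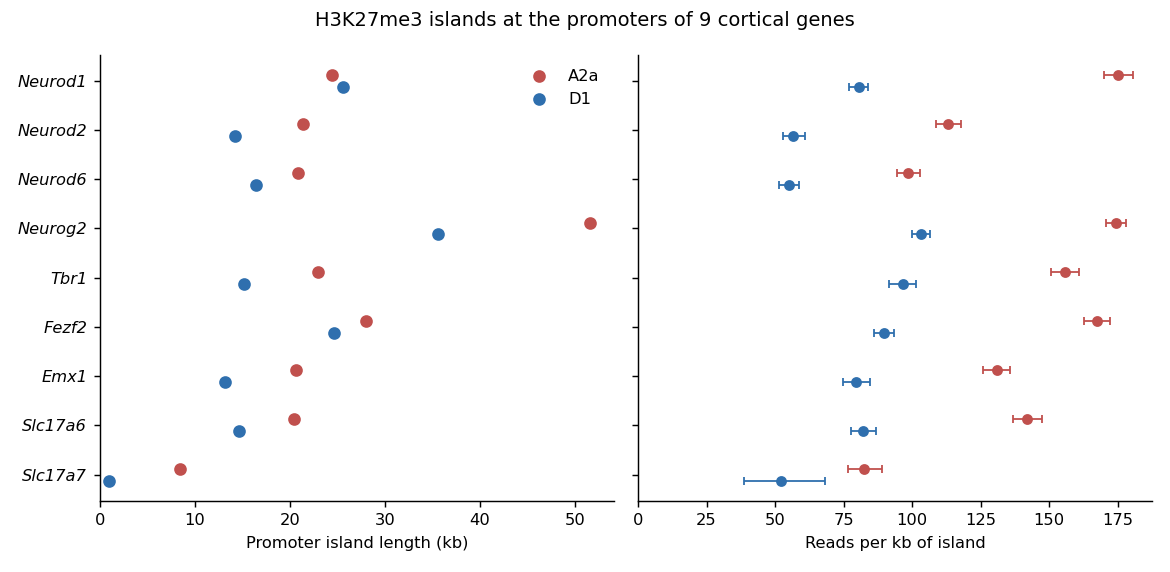
Length in kb (left) and reads per kb (right) of the H3K27me3 island at the promoter of each gene in A2a (red) and D1 (blue), 1 pooled list each. Bars on the right are 95% Poisson intervals of the reads, which cover counting error only, and *Slc17a7* has the lowest values in both panels.

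Most of the gene bodies lay under islands too. The whole gene lay under islands for 7 of the 9 genes in A2a (2.86% of protein-coding genes) and for 6 in D1 (1.77%). *Emx1* was covered over 100% of its length in A2a and 56.2% in D1. *Slc17a6*, the longest of the 9 at 49.1 kb, was covered over 36.6% in A2a, by the promoter island and a separate one of 1.8 kb inside the gene, and over 22.4% in D1. *Slc17a7* was covered over 80.3% and 55.3%.

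The neighbourhoods differed widely among the 9 genes. Islands covered between 17.2% (*Slc17a6*) and 69.5% (*Neurod1*) of the gene with 50 kb on each side in A2a, and between 9.79% (*Slc17a6*) and 51.2% (*Neurod1*) in D1. The median was 33.7% in A2a and 18.0% in D1, where that over protein-coding genes was 3.87% and 1.20%. *Neurog2* (62.8% and 51.0%) and *Fezf2* (53.2% and 31.3%) also stood above the median in both lists, as did *Neurod6* (54.7% and 25.5%). At *Neurod2* the share was 20.5% and 17.1%. These shares include the promoter island itself, which was the only island in the window at *Neurod2* in A2a and at *Slc17a6* in D1. The contrast with all protein-coding genes therefore partly restates the promoter islands.

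The order of the genes by density of reads was similar in the 2 lists. In A2a the densities ran from 175 reads per kb at *Neurod1* and *Neurog2* through 167 at *Fezf2*, 156 at *Tbr1*, 142 at *Slc17a6*, 131 at *Emx1*, 113 at *Neurod2* and 98.7 at *Neurod6* to 82.6 at *Slc17a7*. The counting intervals of *Neurod1*, *Neurog2* and *Fezf2* overlapped in this order, and those of the other neighbours did not. In D1 they ran from 103 at *Neurog2* and 96.5 at *Tbr1* through 89.7 at *Fezf2*, 82.2 at *Slc17a6*, 80.5 at *Neurod1*, 79.6 at *Emx1*, 56.7 at *Neurod2* and 55 at *Neurod6* to 52.0 at *Slc17a7*, and here the intervals of all neighbours overlapped except those of *Emx1* and *Neurod2*. As a description over 9 genes, Spearman's rho between the lists was 0.82 for density and 0.87 for length, and the values of a gene share its sequence and mappability.

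Between the cell types most islands were longer and denser in reads in A2a, at these genes as at others. An island was longer in A2a at 8 of the 9 genes, where 79.6% of the 3132 protein-coding genes with a promoter island in both lists had a longer A2a island, and longer in D1 at 1, against 17.1%. The median ratio of the A2a to the D1 length was 1.45 for the 9 genes and 1.40 for all. The ratio of reads per kb ran from 1.59 at *Slc17a7* to 2.18 at *Neurod1*, with a median of 1.73 against 1.88, and it exceeded 1 at 9 of 9 genes and at 99.4% of all. Over the 656 genes with promoter islands of at least 10 kb in both lists, which include 8 of the 9, the median ratio was 1.18 for length and 1.91 for reads per kb. The A2a H3K27me3 list held more reads than the D1 list as a whole, and its reads were not scaled to it, so these ratios give no difference in level of H3K27me3 between the cell types. The D1 island lay wholly within the A2a island at 7 of the 9 genes, and at *Neurod1* and *Emx1* it ran 1200 and 200 bp outside.

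**Figure D3:**
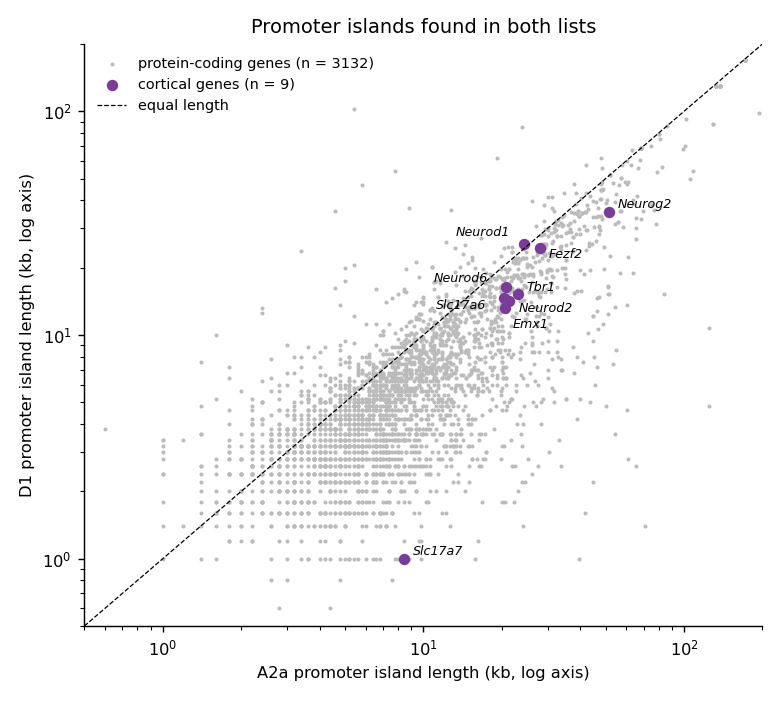
Length in kb of the promoter H3K27me3 island in A2a (x axis) and D1 (y axis), both on log axes, for the 3132 protein-coding genes with an island in both lists (grey) and the 9 cortical genes (purple). The dashed line marks equal length, and *Slc17a7* lies far below it at a ratio of 8.40, at percentile 98.9 of all genes, while the other 8 have ratios from 0.953 to 1.56.

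H3K4me3 was listed at some of these genes. A peak overlapped the promoter of 3 of the 9 in A2a, *Neurog2*, *Emx1* and *Slc17a7*, where 58.2% of protein-coding genes had one, and of 4 in D1, the same 3 and *Neurod6*, where 55.7% had one, so that 3 had a peak in both lists (55.6%). Both marks were thus found in the promoter window of 3 genes in A2a (9.54% of protein-coding genes) and 4 in D1 (5.57%), and H3K27me3 alone at 6 (12.1%) and 5 (9.71%). Among the genes with promoter islands of at least 10 kb in both lists, 47.9% had a promoter peak in A2a and 38.1% in D1, and 2 and 3 of the 8 cortical genes in this class did.

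These peaks stood low in their lists. *Neurog2* had a promoter peak of 941 bp enriched 4.38-fold over the local background in A2a and one of 352 bp at 3.73 in D1, which ranked by −log10 q at percentiles 14.5 and 5.81. *Emx1* had one of 1236 bp at 4.48 in A2a and 895 bp at 3.55 in D1, at percentiles 16 and 6.85. The median promoter peak of protein-coding genes stood at percentile 72.1 in A2a and 71.0 in D1, with a fold enrichment of 7.65 and 7.53 and a width of 1622 and 1517 bp. In the class with islands of at least 10 kb in both lists the medians were percentile 38.1 and 30.9. At *Neurog2* and *Emx1* the peaks lay wholly under H3K27me3 islands and just past the start, with summits 495 and 279 bp downstream at *Neurog2* and 499 and 886 bp downstream at *Emx1*, in A2a and D1.

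*Neurod6* was one of 36 protein-coding genes, 0.164% of all, with a promoter peak in D1 and none in A2a, and 0 of the 9 cortical genes had the reverse (2.59% of all). The D1 peak was 296 bp wide with a fold enrichment of 4.14 and a −log10 q of 9.53, at percentile 19.8, and its summit lay 39 bp past the start, under the islands of both lists. The nearest A2a peak lay 102 kb from the start. With 1 pooled list per cell type, whether this difference exceeds the spread between mice was not tested. The 200 bases before the start on the minus strand (chr6:55681264-55681463, mm10), of which the last 52 belong to the D1 peak, are shown for this site with its CpG dinucleotides in capitals.
Neurod6 promoter: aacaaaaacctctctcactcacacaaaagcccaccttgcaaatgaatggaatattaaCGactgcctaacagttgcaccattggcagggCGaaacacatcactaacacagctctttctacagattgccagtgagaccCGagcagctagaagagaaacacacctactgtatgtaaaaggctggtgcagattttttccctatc
This stretch holds 3 CpGs, and no annotated exon overlaps it.

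Further peaks lay inside 3 genes, away from the annotated 5′ end. *Neurod1* had one in A2a only, of 254 bp with a fold enrichment of 3.32, at percentile 1.47, with its summit 2022 bp past the start in the coding exon. *Fezf2* had one of 407 bp at 3.50 in A2a and 259 bp at 2.74 in D1, at percentiles 10.3 and 0.139, in an intron. *Tbr1* had one in D1 only, of 516 bp at 3.38 and percentile 11.9, and A2a instead had peaks of 400 and 300 bp past the 3′ end of the gene, under the island. All of them lay wholly under H3K27me3 islands. The sequence of the *Neurod1* peak (chr2:79454641-79454894, mm10, minus strand, coding exon) is shown because it lies in the coding sequence, and its CpGs are again in capitals.
Neurod1 coding peak: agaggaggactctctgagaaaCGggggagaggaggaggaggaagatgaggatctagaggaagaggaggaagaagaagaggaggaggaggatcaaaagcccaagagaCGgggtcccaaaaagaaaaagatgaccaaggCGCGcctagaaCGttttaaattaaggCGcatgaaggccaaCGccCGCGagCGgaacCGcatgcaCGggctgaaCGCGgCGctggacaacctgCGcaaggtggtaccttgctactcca
The stretch has 16 CpGs, a ratio of observed to expected CpGs of 0.876.

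With peaks in the gene body counted, H3K4me3 was found at 5 of the 9 genes in A2a (64.1% of protein-coding genes) and 6 in D1 (61.5%). *Neurod2* and *Slc17a6* had no peak in the promoter or body in either list. The start site used mattered at *Tbr1* and *Fezf2*. The RefSeq start of *Tbr1* lies 1523 bp downstream of the GENCODE 5′ end, and the summit of the D1 peak lay 231 bp past it. That of *Fezf2* lies 2324 bp downstream, and the summits of the A2a and D1 peaks lay upstream of it, at −560 and −544 bp. With a window at any transcript start of GENCODE, peaks were found at 4 genes in A2a (62.0% of protein-coding genes) and 6 in D1 (59.4%). Around RefSeq starts, an alternative chosen after seeing the data, promoter peaks were counted at 4 genes in A2a and 6 in D1, and islands still at 9 and 9.

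**Figure D4:**
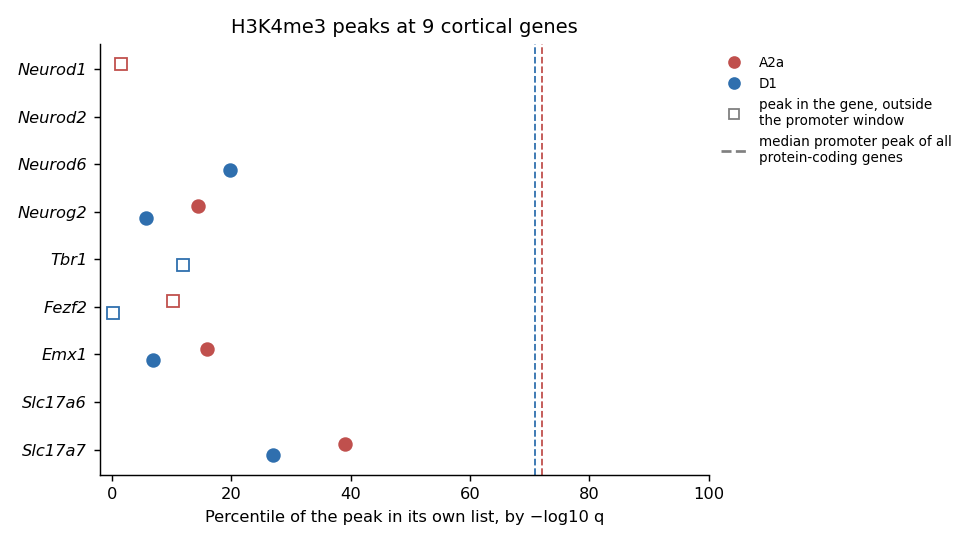
Percentile by −log10 q (x axis) of each H3K4me3 peak in the promoter (filled circles) or elsewhere in the gene (open squares) of the 9 genes, in A2a (red) and D1 (blue). Dashed lines mark the median promoter peak of protein-coding genes, 72.1 in A2a and 71.0 in D1, and all peaks of the cortical genes lie left of them, with *Slc17a7* the furthest right at 39.0 and 27.

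The peak at *Slc17a7* was of another kind. It was 624 bp wide at 8.05-fold enrichment in A2a and 597 bp at 5.25-fold in D1, at percentiles 39.0 and 27, and its summit lay upstream of the start, at −1735 and −1761 bp, between genes. It had 0 bp under H3K27me3 islands, and the nearest island was 543 bp away in A2a and 1616 bp away in D1. The 2 marks in this promoter window were therefore side by side and not on the same stretch. The bases around the A2a summit (chr7:45162114-45162314, mm10, plus strand) are shown with CpGs in capitals.
Slc17a7 upstream peak: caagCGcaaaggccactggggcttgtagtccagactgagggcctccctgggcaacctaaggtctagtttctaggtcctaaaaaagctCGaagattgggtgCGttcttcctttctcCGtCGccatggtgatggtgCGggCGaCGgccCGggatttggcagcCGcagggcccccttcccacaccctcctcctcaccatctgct
They hold 10 CpGs, with a GC content of 60.2%.

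Each neighbouring gene with a call had either peaks or islands at its promoter. The 9 genes had 15 protein-coding neighbours with a peak or island at a promoter within 50 kb of the gene, all of them near *Neurod1*, *Neurod2*, *Emx1* or *Slc17a7*. Of these, 10 had a promoter H3K4me3 peak in both lists and none of those 10 had a promoter island in either. The other 5 had an island and no peak, 3 in both lists and 2 in A2a alone. Of all protein-coding genes, 55.6% had a promoter peak in both lists, and 9.54% in A2a and 5.57% in D1 had both marks. Several neighbours share a peak or an island, and the island of *Cerkl* is that of *Neurod1*, so the 15 are not separate calls. With so few genes these counts are a description only.

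*Neurod2* lies beside *Ppp1r1b*, which encodes DARPP-32, the dopamine-regulated phosphatase inhibitor of striatal projection neurons, with its start 18.8 kb upstream. The *Ppp1r1b* promoter had a peak of 3414 bp at 3.64-fold enrichment in A2a and 3086 bp at 4.72-fold in D1, at percentiles 53.6 and 72.7 of the lists, and no island. The *Neurod2* island ended 2.55 kb upstream of its own start in A2a and 1.35 kb in D1, and the next peak lay 2088 and 3286 bp beyond that edge. This peak, of 399 bp at 3.26 in A2a and 401 bp at 4.36 in D1, overlapped no annotated exon. The bases of the A2a peak furthest from *Neurod2* (chr11:98334486-98334686, mm10, minus strand), which hold its summit, are given with CpGs in capitals.
Neurod2 upstream peak: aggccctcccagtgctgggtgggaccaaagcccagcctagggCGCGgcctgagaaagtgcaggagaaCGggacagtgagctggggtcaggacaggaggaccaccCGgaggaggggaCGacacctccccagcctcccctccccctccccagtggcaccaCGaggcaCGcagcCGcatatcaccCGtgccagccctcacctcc
They hold 9 CpGs.

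*Slc17a7* sits in a gene-dense stretch. *Aldh16a1* and *Pih1d1*, which share a promoter 9.37 and 9.65 kb away, had a shared peak at 11.5-fold enrichment in A2a and 14.3-fold in D1, and the ribosomal protein gene *Rpl13a* and the genes *Flt3l*, *Gm45713* and *Ccdc155* also had peaks and no islands. Downstream, *Gfy* and *Pth2* shared the island over the 3′ end of *Slc17a7*. *Dkkl1* and *Tead2* had islands of 3.40 and 3.60 kb in A2a and none in D1. At *Emx1* the marked neighbour was *Spr*, 49.7 kb away, whose peak was enriched 14.5-fold in A2a and 14.4-fold in D1.

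**Figure D5:**
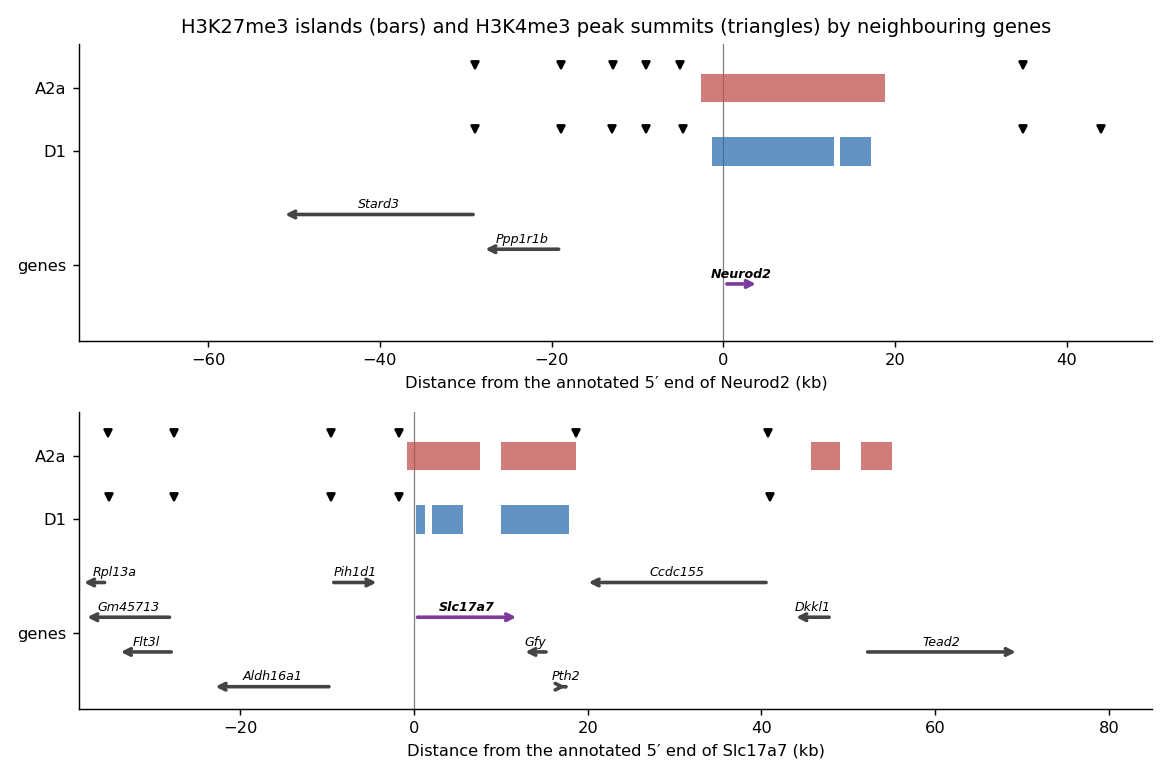
H3K27me3 islands (bars) and H3K4me3 summits (triangles) in A2a (red) and D1 (blue) around *Neurod2* (top) and *Slc17a7* (bottom), with distance in kb from the annotated 5′ end on the x axis and arrows for the gene and its marked protein-coding neighbours within the range drawn, pointing in the direction of transcription. Triangles stand at *Ppp1r1b* and *Stard3* and at the genes upstream of *Slc17a7*, outside the bars.

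The promoters of the 9 genes did not share a high density of CpG dinucleotides, a feature often found where both marks occur. In the same window of 3 kb, the ratio of observed to expected CpGs was 0.767 at *Neurog2* and 0.604 at *Emx1*, at percentiles 96.3 and 81.7 of protein-coding genes, and these were the 2 genes with a promoter peak under an island in both lists. It ran from 0.446 at *Slc17a7* through 0.424 at *Slc17a6*, 0.422 at *Neurod1*, 0.366 at *Neurod2*, 0.295 at *Fezf2* and 0.294 at *Neurod6* to 0.259 at *Tbr1*. The median was 0.422 for the 9, 0.400 for protein-coding genes and 0.536 for genes with islands of at least 10 kb in both lists. Around the RefSeq starts the ratio was 0.648 at *Fezf2* and 0.454 at *Tbr1*, so these 2 values depend on the start chosen. With that start *Fezf2* also had a promoter peak under an island in both lists. That only *Neurog2* and *Emx1* had such peaks therefore holds for the GENCODE 5′ ends. The letters CAGATG, an E-box form that NeuroD and Neurogenin factors are known to bind, occurred on either strand (CATCTG on the other) in 1 of the RefSeq promoters of 300 bases of *Slc17a6* and in that of *Neurod2*, and in 17.2% of all 32851 such promoters.

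Related genes were covered to differing extents. Of 9 bHLH relatives, promoter islands were found at 8 in A2a and 7 in D1 and peaks at 4 and 4. The exceptions were *Atoh7*, a retinal factor with a peak at percentiles 77.2 and 66.0 and no island, and *Atoh8*, with an island of 6.40 kb in A2a only. Of 20 other cortical transcription factors, 14 had islands in both lists, while peaks were found at 15 in A2a and 13 in D1. *Pax6* and *Lhx2*, factors of cortical progenitors, had peaks in A2a and not in D1, at percentiles 8.0 and 20.6. Their islands measured 48.0 and 47.2 kb at *Pax6* and 34.0 and 7.0 kb at *Lhx2*, in A2a and D1. The other 6 factors of this list had no promoter island in either list.

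Of the other 7 Slc17 genes, 2 had promoter islands in A2a and 1 in D1. *Slc17a8*, which encodes VGLUT3, had one of 13.0 kb with 1114 reads in A2a and 4.80 kb with 237 reads in D1. *Slc17a1* had one of 2.20 kb in A2a only. The lysosomal sialic acid transporter gene *Slc17a5* had peaks at percentiles 83.4 and 94.3 and no island. The 3 vesicular glutamate transporter genes thus each had a promoter island in both lists. That of *Slc17a7* in D1 was the short one of 1.0 kb with 52 reads, which began past the start.

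Genes of the cells' own transmitter were read in the same way. Of 5 genes of GABA synthesis and transport, 4 had promoter peaks in both lists (55.6% of protein-coding genes). Islands were found at 2 in A2a (21.7% of protein-coding genes), *Gad2* (7.60 kb) and *Slc32a1* (4.4 kb), and neither reached 10 kb. In D1 islands were found at 0 of the 5 (15.3% of protein-coding genes). *Gad1* had no call at its annotated 5′ end. With any transcript start counted, 5 of 5 had a peak in both lists, and islands were found at 3 in A2a and 1 in D1. Of 12 transcription factors of striatal projection neurons, 10 had peaks in each list, and islands were found at 7 in A2a and 5 in D1, with *Foxp2* and *Zfp503* in A2a only. The peak of *Zfp503* was listed in A2a only and that of *Ebf1*, a factor of D1 neurons, in D1 only.

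Genes of cholinergic and monoamine neurons had islands in shares like the 9 genes and no peaks at their annotated 5′ ends. Islands were found at 11 of 13 in both lists and peaks at 0 of 13 in both, with median island lengths of 17.4 and 13.6 kb. With any transcript start counted, islands were found at 13 of 13 in both lists, and a peak at 1 gene in A2a and 0 in D1. *Chat* and *Slc18a3* share an island and are not independent. Their longest promoter islands were 30.8 kb in A2a at *Fev* and 28.4 kb in D1 at *Lmx1b*. These lists differ in size and were chosen with results known, so their counts are a description beside the shares of all genes given above.

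The 5 genes nearest to the median of the 9 in the percentiles of promoter marks over the 4 lists were *Tbx1*, *Mapk15*, *Lpar3*, *Grb10* and *Grhl2*. Their distances to the median of the 9 genes lay between 0.0821 and 0.159 percentile points, their islands measured 18.6 to 28.2 kb in A2a and 15.6 to 18.6 kb in D1, and none had a promoter peak. The median of the 9 stands at 0 for peaks in both lists, so the measure itself picks genes without a promoter peak. Within a distance of 2 of that median lay 289 protein-coding genes. *Neurog2*, *Emx1*, *Slc17a7* and *Neurod6*, which had promoter peaks, lay further from it than that.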

How the data were processed

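H3K4me3 and H3K27me3 CUT&RUN libraries of A2a and D1 striatal nuclei were read from 4 lists on mm10 (GRCm38), each pooling 2 samples. The authors aligned reads with Bowtie2 (version 2.1.0, per the labels) and called H3K4me3 peaks with MACS2. The deposited peaks carry a fold enrichment, which is a ratio to the local background, and a −log10 q-value, of which the lowest was 2.02. The deposited H3K27me3 islands, called by the authors with SICER (window 200 bp, gap 600 bp, false discovery rate 0.01 per the file names) against a control that the sources used here do not name, carry a read count that is not normalized for depth.

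Genes were taken from GENCODE vM21 and promoter sequences from the RefSeq table for GRCm38, in which all 9 genes were matched. Peaks and islands were counted at promoters (2 kb upstream to 1 kb downstream), gene bodies and 50 kb on each side, at an overlap of at least 1 bp. Where several overlapped, the peak with the highest −log10 q or the island with the most reads was used. Percentiles are ranks within a list, by −log10 q or reads. Poisson intervals (95%) cover counting error only. No test was made, since each list gives 1 value. The genes named are the 9 genes, their marked neighbours within 50 kb, fixed lists of related and contrasting genes with examples (those marked in 1 cell type only, else the longest and shortest islands) and the 5 most alike genes, and not all neighbours and list genes are reported here by name. Other examples from the lists, the 10 kb length, the motif and the sequences were chosen after values were seen, and the genes and lists with earlier results of these data known. Interval overlaps were tested on simulated data. Computations used Python (version 3.11.15), pandas (version 2.3.3), numpy (version 2.4.6), scipy (version 1.17.1), pysam (version 0.24.0) and matplotlib (version 3.10.9).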

Additional observations from a re-analysis of the deposited data

How the results depend on the processing

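The 10 results were counts of genes with each mark and the median cover of the neighbourhood. They gave 80 values under other windows, starts, overlaps, thresholds and joined islands, and 73 stayed within 1.5 times the value reported. The same factor was used for the medians, since no replicate spread exists. Some settings could not change a result, such as a peak threshold for counts of islands or an island length for counts of peaks. A change from 4 to 6 genes with a promoter peak in D1 still counted as within the factor. The 73 values are therefore no measure of how stable the results are. With a window of 5 kb on each side of the start, a promoter peak was counted at 6 genes in A2a and 7 in D1, and both marks at 6 and 7. The share of all protein-coding genes in this wider window was not computed, so these counts have no background beside them. They also do not require the marks to overlap, and the peaks in this window at *Neurod2* and *Slc17a7* had 0 bp under islands. With 20 kb on each side, the median share of the gene and its surroundings under islands was 56.9% in A2a and 39.3% in D1, and with 100 kb it was 11.6% in D1. No paired analysis was possible because each list pools its replicates, and for the same reason no replicate could be left out. Neither library depth nor the spread between mice is known from these lists, so a peak absent from one list is only not listed there.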
